A study of Mus musculus with 10 samples.

Results

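The genes described here encode the enzymes and regulators of sterol, fatty acid and phospholipid synthesis. They were chosen as a list of 38 symbols, and 37 of them were matched among the 26434 gene symbols of the RNA-seq files. Hmgcs1 was not matched under its symbol and is not analysed here. The list falls into 17 genes of sterol steps (16 matched), 6 of SREBP control, 10 of fatty acid synthesis and 5 of membrane lipid synthesis. The RNA was from 2 of the 10 samples of a study that compares naive B with plasma cells of the mouse, 1 library of each. Both were wild type C57BL/6. Naive B cells, the resting B cells that have not met antigen, were sorted from spleen as CD23+ IgD+ cells. The labels of the plasma cells, which are antibody-secreting cells, name an in vitro activated source in one field and a bone marrow sort of CD138+ B220- cells in another, and neither reading was taken as settled. The labels do not say how many animals gave each library. With 1 library per cell type no difference below has a replicate check, and none was tested.

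Cells build cholesterol from acetyl-CoA through mevalonate, farnesyl diphosphate, squalene and lanosterol. The transcription factors SREBP, encoded by Srebf1 and Srebf2, switch these genes on: when membrane sterol is low, the escort protein SCAP carries SREBP from the endoplasmic reticulum to the Golgi to be cut, and when sterol is high the INSIG proteins hold SCAP back. Cells that become plasma cells expand their endoplasmic reticulum, whose membrane needs phospholipid and sterol. SREBP often acts beside NF-Y, a factor that binds the letters CCAAT in promoters.

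To show these letters, the 200 bases before the RefSeq start are printed for the 6 matched genes with the largest plasma over naive ratios among those with a promoter in the RefSeq table (GRCm38.p6, 5′ to 3′ on the gene's strand). Capitals mark CCAAT, its reverse complement ATTGG, and the E-box CACGTG.
Fads2 (chr19:10101504-10101703, minus strand): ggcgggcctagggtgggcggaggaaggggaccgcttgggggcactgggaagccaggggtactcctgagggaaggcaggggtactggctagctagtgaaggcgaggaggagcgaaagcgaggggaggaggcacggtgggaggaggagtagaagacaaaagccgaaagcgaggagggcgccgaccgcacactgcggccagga
Insig1 (chr5:28071212-28071411, plus strand): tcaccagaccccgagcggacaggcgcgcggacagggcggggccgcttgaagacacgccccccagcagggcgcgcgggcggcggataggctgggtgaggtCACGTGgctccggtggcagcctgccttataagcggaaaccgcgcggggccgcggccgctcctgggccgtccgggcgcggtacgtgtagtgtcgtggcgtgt
Cyp51 (chr5:4104698-4104897, minus strand): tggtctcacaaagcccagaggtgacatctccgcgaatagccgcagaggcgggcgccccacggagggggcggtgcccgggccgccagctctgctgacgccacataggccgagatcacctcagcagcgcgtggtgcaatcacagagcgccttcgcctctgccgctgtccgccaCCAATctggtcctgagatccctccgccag
Mvd (chr8:122443423-122443622, minus strand): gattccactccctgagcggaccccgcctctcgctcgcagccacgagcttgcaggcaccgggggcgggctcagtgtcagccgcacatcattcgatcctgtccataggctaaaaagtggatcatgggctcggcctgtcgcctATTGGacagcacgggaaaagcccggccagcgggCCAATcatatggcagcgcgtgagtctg
Lss (chr10:76531405-76531604, plus strand): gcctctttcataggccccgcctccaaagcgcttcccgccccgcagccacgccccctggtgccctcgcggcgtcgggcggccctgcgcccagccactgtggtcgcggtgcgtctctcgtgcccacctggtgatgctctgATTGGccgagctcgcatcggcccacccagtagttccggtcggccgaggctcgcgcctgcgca
Idi1 (chr13:8885406-8885605, plus strand): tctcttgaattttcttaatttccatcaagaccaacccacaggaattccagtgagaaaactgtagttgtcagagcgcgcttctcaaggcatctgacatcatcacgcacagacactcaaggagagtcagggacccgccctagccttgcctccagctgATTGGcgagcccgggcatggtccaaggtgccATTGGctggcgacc
The 4 sterol genes Cyp51, Mvd, Lss and Idi1 each hold CCAAT or ATTGG within these bases. In Cyp51 it begins 29 bases before the start, in Mvd 60 and 27 bases, in Lss 62 bases and in Idi1 45 and 14 bases. Insig1 holds an E-box that begins 101 bases before its start, and CCAAT only in the longer window searched below. Fads2 holds neither motif.

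Levels are given in TPM, a share of all transcripts that accounts for their length. The ratio is log2 of plasma over naive after adding 1 TPM to each, less the median over 7488 genes that reach 5 TPM in both. That median was -0.99, so a centred ratio of 0.99 means an equal TPM in both libraries. A gene that reached 5 TPM in 1 library was called higher from a centred ratio of 1 upward and lower from -1 downward, a 2-fold difference from the median gene. A call of higher therefore needs little more than an equal TPM, and the genes just inside (Pcyt1a at 1.03, Srebf2 at 1.08) and just outside (Tm7sf2 at 0.97, Sc5d at 0.90) had like levels in both libraries. All 37 genes passed the filter on low values. Of them 24 were called higher in plasma cells and 1, Chka, was called lower, while 12 lay between. Among the 10191 genes that passed this filter, called the genes tested below, 16.0% were called higher and 22.0% lower. The median centred ratio was 1.53 over the 37 genes and -0.13 over the 12915 genes with at least 1 TPM in 1 library.

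The scale decides many of these calls. Without centring, 15 of the 37 were called higher and 3 lower, against 7.75% and 57.6% of all genes tested. The 3 called lower were Chka (-2.415), Scd1 (-1.213) and Insig2 (-1.189). On estimated counts scaled by TMM factors, 27 were called higher and none lower, against 22.0% and 16.7%. In that setting higher genes were 56.8% of all calls, compared with 42.1% in the centred TPM and 11.9% without centring. The 15 genes called without centring had a ratio of at least 1 in all 8 settings of scale, pseudocount or transcript set: Acat2, Mvk, Mvd, Idi1, Fdps, Fdft1, Sqle, Lss, Cyp51, Nsdhl, Insig1, Scd2, Elovl6, Fads1 and Fads2. Leaving out the centring picked these 15, and it gave the lowest of the 8 ratios for all but Fads1 and Fads2. Passing the other settings thus largely follows from that choice. The sign differed between these settings for 12 genes: Tm7sf2, Sc5d, Srebf1, Scap, Insig2, Acly, Acaca, Fasn, Scd1, Elovl1, Elovl5 and Acsl4. Chka was below 0 in all 8.

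The libraries also differed in other ways. The depth, in estimated counts, was 36995177 for the naive and 43457786 for the plasma library. Plasma markers were higher in 6 of 7 tested cases (Mzb1 3554, Jchain 3027 and Xbp1 939 TPM in plasma cells), but Sdc1, the gene of CD138, was at 11.1 and 5.38 TPM. Tnfrsf17, the other of the 8 plasma markers, did not pass the filter, at 2.24 and 1.68 TPM. All 7 matched naive markers were lower. Of 12 cell cycle genes, 9 were called higher and none lower, with a summed level of 367 and 909 TPM. Immunoglobulin genes took 5.03% and 34.8% of TPM. Xist was at 0.383 and 128 TPM, and the Y-linked Eif2s3y at 104 TPM in naive B cells and listed at 0 in plasma cells. By these transcripts the naive library was of male and the plasma library of female type. Cell type and sex therefore cannot be told apart for any gene here, the X-linked Nsdhl, Ebp and Acsl4 included. Markers of monocytes and neutrophils summed to 145 TPM in the naive and 1.99 TPM in the plasma library (5 of 8 lower, 7 under 1 TPM in the plasma library). Those of T and NK cells summed to 102 and 4.97 TPM (6 of 8 lower, with Cd3e, Trbc1, Trbc2 and Ncr1 listed at 0 in the plasma library), and those of erythroid cells to 82.5 and 2.29 TPM (4 of 6 lower). Of 6 dendritic cell and basophil markers only Flt3 was called, at 2.50 and 30.2 TPM. The part of cell division, of sex and of such other cells in the lipid gene ratios was not tested. In bulk RNA fewer cells of a type and less RNA per cell cannot be told apart.

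**Figure D1:**
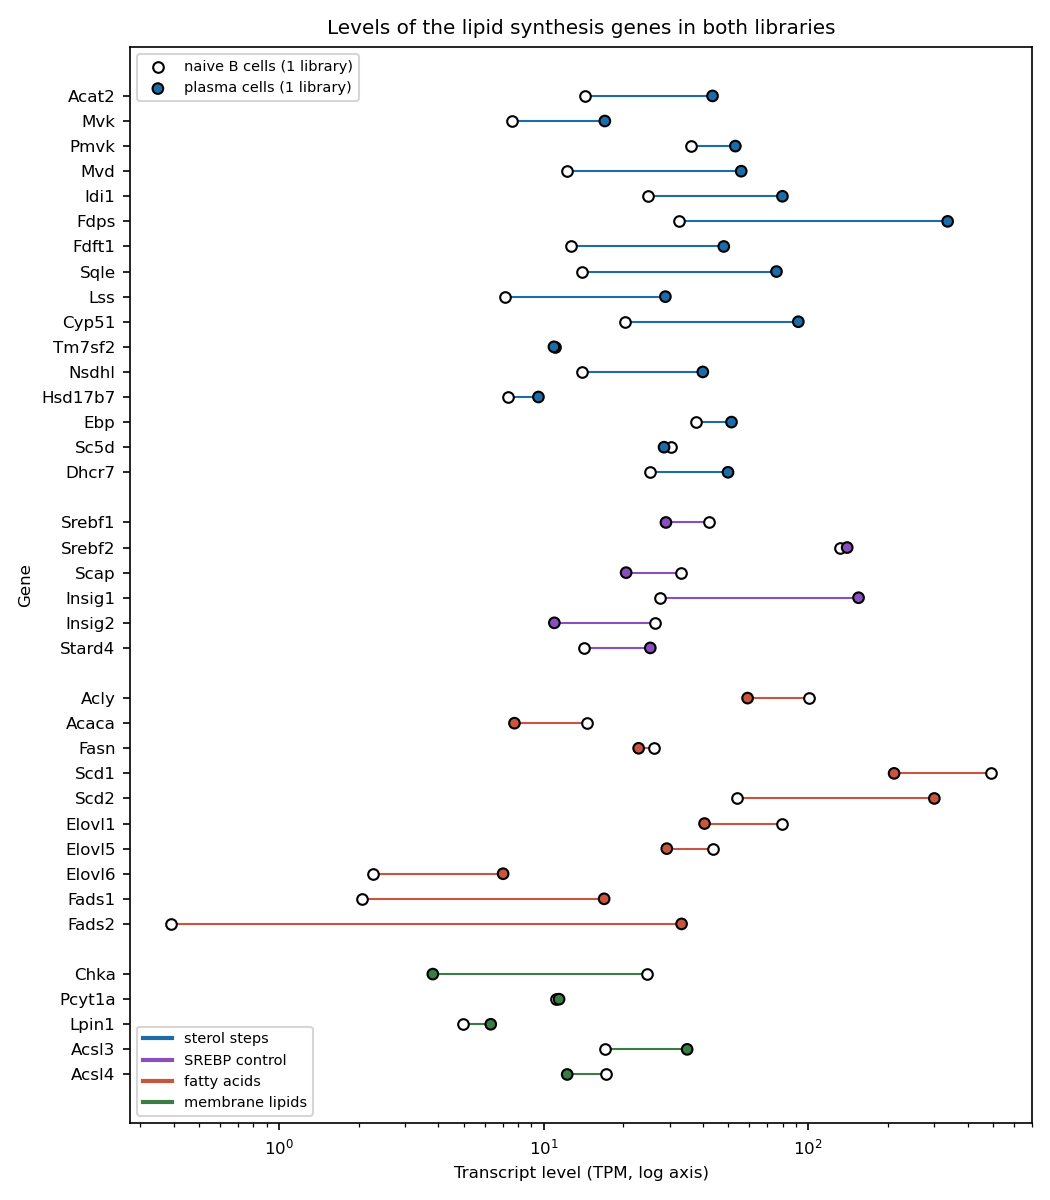
Level of each gene (TPM, log axis) in the naive B cell library (open circle) and the plasma cell library (filled circle), with 1 library each and colours for the 4 groups. Filled circles of the sterol steps lie to the right of the open ones from Acat2 to Cyp51, while those of Acly, Acaca, Scd1 and Elovl1 lie to the left.

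The sterol steps were the group with the most calls: 14 of 16 matched genes were called higher, none lower, and the median centred ratio was 2.48. Without centring 10 were called higher, the other 4 being Pmvk, Hsd17b7, Ebp and Dhcr7. Their levels summed to 307 TPM in the naive and 1021 TPM in the plasma library. In the early part of the pathway, Acat2, the cytosolic thiolase that joins 2 acetyl-CoA units, was at 14.3 TPM in the naive and 43.5 TPM in the plasma library (centred ratio 2.53). The mevalonate kinase gene Mvk went from 7.59 to 17.05 TPM (2.06). Pmvk, the kinase of the next step, was at 36.03 and 53.1 TPM (1.53). Pmvk was thus the highest of these early genes in naive B cells and had the smallest ratio among them. Mvd, the decarboxylase that yields isopentenyl diphosphate, went from 12.2 to 55.9 TPM (3.09). Idi1, the isomerase of that product, went from 24.8 to 79.9 TPM (2.63).

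The middle of the pathway, from farnesyl diphosphate to lanosterol and its first demethylation, held the largest ratio of the sterol steps, that of Fdps. Fdps makes farnesyl diphosphate, from which sterols, dolichol and the prenyl anchors of proteins are all made. It was at 32.6 TPM in the naive and 336 TPM in the plasma library, a ratio of 4.32 that lay above 99.0% of the genes tested, and its rank by level went from 4841 to 361. Its estimated counts were 809 and 15786, and their ratio, centred on the counts' own median, was 4.43 with an exact interval of 4.33 to 4.53. Such 95% intervals cover counting error only. Each count interval given below belongs to the count ratio, and it can leave out the TPM ratio printed beside it. Fdft1, squalene synthase, went from 12.7 to 48.0 TPM (2.83). Sqle, the squalene epoxidase and a rate-limiting enzyme of the pathway, went from 14.0 to 75.9 TPM (3.34, count interval 3.39 to 3.60). Lss, which closes the rings of lanosterol, was the lowest of these in naive B cells at 7.17 TPM and reached 28.9 TPM (2.86). Cyp51, the lanosterol demethylase, went from 20.3 to 91.8 TPM (3.11).

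The late steps from lanosterol to cholesterol were uneven. Nsdhl, a dehydrogenase of the demethylation complex, went from 14.0 to 40.0 TPM (2.44). Its partner in that complex, Hsd17b7, was at 7.37 and 9.57 TPM (1.32). Dhcr7, which carries out a final reduction to cholesterol, went from 25.2 to 49.8 TPM (1.94). The isomerase gene Ebp was at 37.7 and 51.3 TPM (1.42). Levels of the remaining genes were close to equal. Tm7sf2, a sterol reductase, was at 11.1 and 10.9 TPM (0.97), and the desaturase gene Sc5d at 30.4 and 28.5 TPM (0.90). Tm7sf2 and Sc5d were just outside the calling threshold, and with TMM factors on counts they were inside it (1.467 and 1.195).

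**Figure D2:**
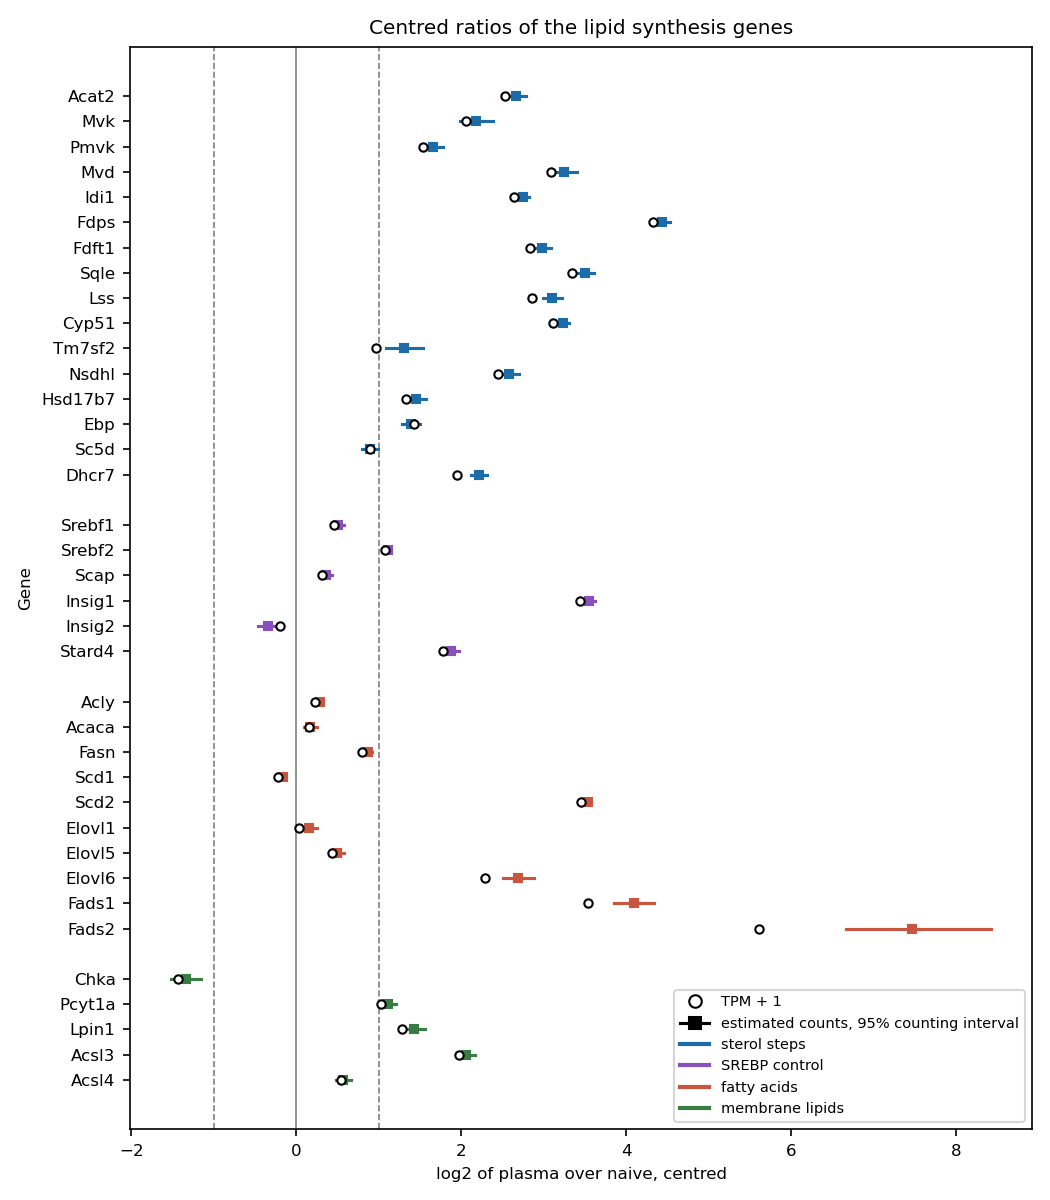
Centred log2 ratio of plasma over naive for each gene, from TPM with 1 added (open circles) and from estimated counts (squares with 95% counting intervals, 1 library per cell type). Dashed lines mark the calling threshold of 1 and -1. The sterol steps from Mvd to Cyp51 lie between 2.63 and 4.32 on the TPM scale, and Fads2 has the widest interval.

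Among the genes of SREBP control the feedback gene Insig1 stood far above the rest. Insig1, itself a known SREBP target, was at 27.6 TPM in the naive and 155 TPM in the plasma library, with a centred ratio of 3.43 and a count interval of 3.47 to 3.62. Its relative Insig2 went from 26.3 to 11.0 TPM (-0.20, count interval -0.47 to -0.22). Insig1 was 1.05 times the level of Insig2 in the naive library, against 14.1 times in the plasma library. Of the 2 SREBP genes, Srebf2, whose product mainly drives sterol genes, was at 132 and 140 TPM (1.08), and Srebf1, whose product mainly drives fatty acid genes, at 42.3 and 29.0 TPM (0.46). Srebf2 was 3.11 times the level of Srebf1 in the naive library, against 4.84 times in the plasma library. The escort gene Scap was at 33.2 and 20.5 TPM (0.32). Stard4, a cytosolic sterol carrier, went from 14.2 to 25.3 TPM (1.78). Of the 6 genes 3 were called higher and none lower. Their median was 0.77, and -0.22 without centring. The calls of Srebf2 and Stard4 rest on centring, since their ratios without it were 0.092 and 0.79.

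The fatty acid genes did not move as a block. Of 10, 4 were called higher and none lower, with a median of 0.615 that was -0.37 without centring. Acly, which makes cytosolic acetyl-CoA from citrate, was at 100.3 TPM in the naive and 59.0 TPM in the plasma library (0.23). Acaca, the acetyl-CoA carboxylase, was at 14.6 and 7.77 TPM (0.16), and the fatty acid synthase gene Fasn at 26.1 and 22.9 TPM (0.80). The TPM of these 3 genes of the core pathway was thus lower in the plasma library, although their centred ratios were above 0. With TMM factors on counts Fasn passed the threshold at 1.19, and Acly and Acaca did not (0.61 and 0.49).

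The 2 stearoyl-CoA desaturase genes, whose enzymes make monounsaturated fatty acids, differed from each other. Scd1 had the highest naive level of the list, at 491 TPM in naive B cells (rank 240 of all genes) and 211 TPM in plasma cells (-0.23). Scd2 went from 53.7 to 300 TPM (3.45, count interval 3.50 to 3.58). Scd1 was 9.14 times Scd2 in the naive and 0.705 times in the plasma library, while their sum was 544 and 511 TPM. The estimated counts behind them were 49298 and 40052 for Scd1 and 6087 and 64170 for Scd2. In both genes the counts were not whole in at least 1 library, as happens when reads fit more than 1 gene.

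Desaturation and elongation of long fatty acids held the largest ratio of the list. Fads2, a desaturase at the start of polyunsaturated fatty acid synthesis, was at 0.392 TPM in the naive and 33.2 TPM in the plasma library. Its ratio of 5.61 lay above 99.8% of the genes tested. The naive value rests on 12 estimated counts against 1922, so the count ratio of 7.46 had an interval of 6.66 to 8.42. At such low levels the TPM ratio is smaller than the count ratio because 1 TPM is added. Fads1, the desaturase of a later step, went from 2.07 to 16.9 TPM (3.53, count interval 3.85 to 4.34). Fads3, a gene of the same family outside the list, went from 0.192 to 8.37 TPM (3.96). The elongases were split. Elovl6, which extends saturated and monounsaturated chains, went from 2.27 to 7.04 TPM (2.28). Elovl5, which extends polyunsaturated chains, was at 43.5 and 29.2 TPM (0.43), and Elovl1, for very long chains, at 79.7 and 40.6 TPM (0.031).

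Of the 5 genes of membrane lipids, 3 were called higher and 1 lower (median 1.03, or 0.038 without centring). Chka, the choline kinase of the first step to phosphatidylcholine, was the only one of the 37 called lower. It was at 24.7 TPM in the naive and 3.82 TPM in the plasma library, with a ratio of -1.43 and a count interval of -1.52 to -1.15. With TMM factors on counts its ratio was -0.93, short of the threshold. Pcyt1a, whose enzyme is rate-limiting in the same pathway, was at 11.1 and 11.45 TPM (1.03), and the phosphatidate phosphatase gene Lpin1 at 4.95 and 6.32 TPM (1.29). Both calls come from centring, without which their ratios were 0.038 and 0.30, and so does that of Acsl3, described next, at 0.9914. Of the acyl-CoA synthetases, which activate fatty acids, Acsl3 went from 17.1 to 34.9 TPM (1.98) and Acsl4, which prefers arachidonate, from 17.2 to 12.3 TPM (0.54). The Acsl3 level was 0.994 times that of Acsl4 in the naive library, against 2.84 times in the plasma library.

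**Figure D3:**
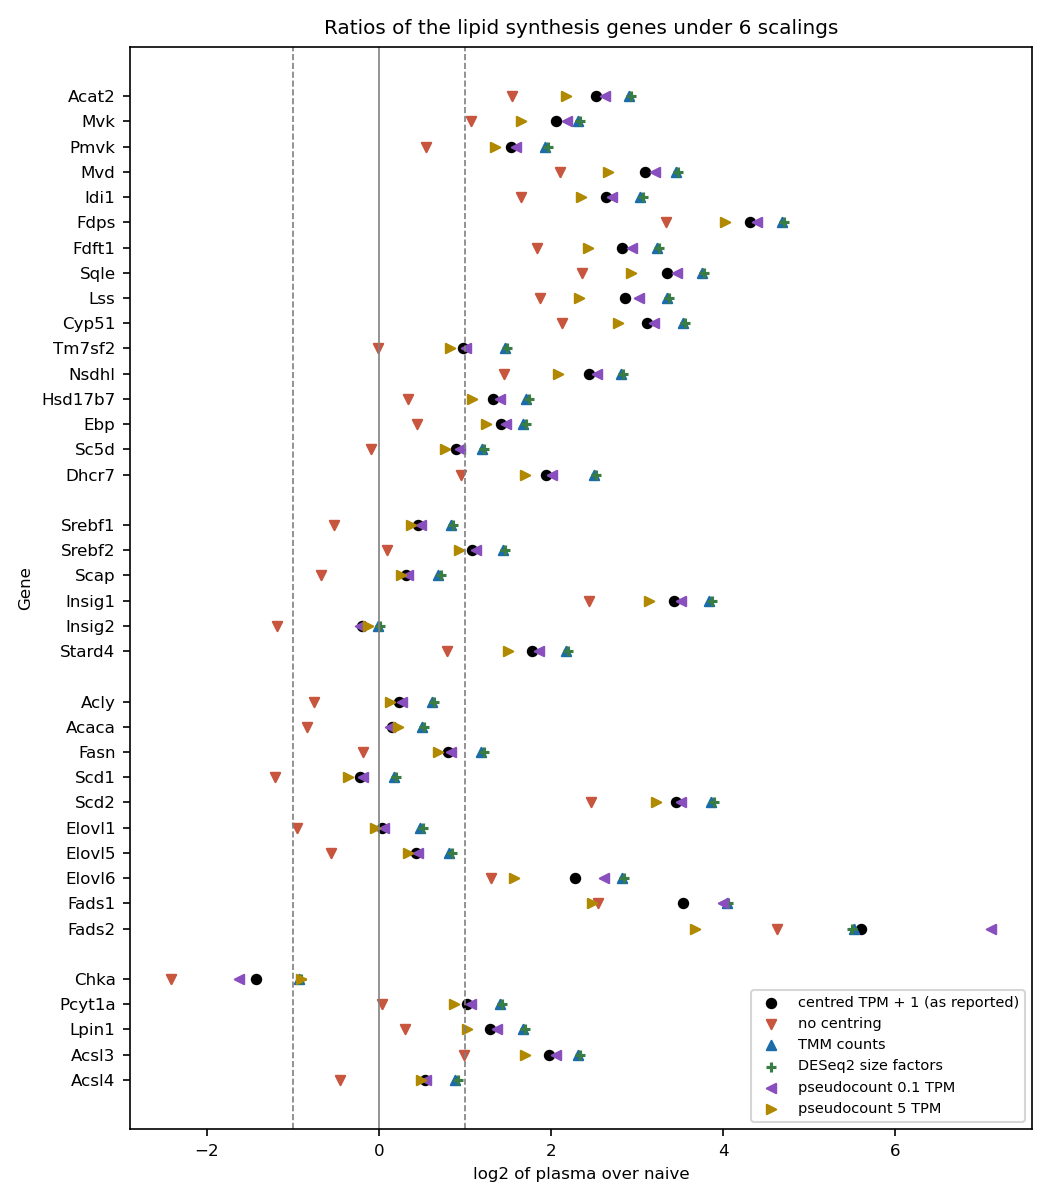
Ratio of each gene (log2 of plasma over naive) under 6 scalings or pseudocounts, with 1 library per cell type and dashed lines at 1 and -1. Without centring (triangles pointing down) values shift left by 0.99, and the fatty acid genes Acly, Acaca, Fasn, Scd1, Elovl1 and Elovl5 then lie below 0.

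More than 1 transcript is listed for 25 of the 37 genes, and the other 12 have 1 transcript in the files. The 2 transcripts of Idi1 were not told apart, as each was given 50.0% of its TPM in both libraries. In the other genes the transcript with the highest TPM was the same in both libraries except in Mvk, Tm7sf2, Sc5d and Elovl1. In Mvk, Mvk-005 carried 58.6% of the naive TPM and 23.0% of the plasma TPM, and Mvk-001 41.4% and 66.7%. In Sc5d the transcript that led in the naive library went from 52.7% to 35.96%, and in Elovl1 from 50.2% to 24.1%. In Tm7sf2, Tm7sf2-001 went from 12.4% to 58.5%, and its level was 1.37 and 6.41 TPM while the gene's was nearly equal. The leading transcript of Lpin1 carried 93.3% of its TPM in the naive and 56.5% in the plasma library. Of the 5 transcripts of Srebf1, Srebf1-005 led in both libraries at 32.1% and 30.6%. The tool divides shared reads among transcripts by estimate, so these shares have no interval.

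Promoter letters were searched on both strands in the RefSeq windows of 250 bases before to 50 after each start, for the 30 of the 37 genes with an entry. A gene was counted where any of its windows held the motif. CCAAT was present in 12 of the 13 sterol genes with an entry, all but Acat2, compared with 41.1% of all 27025 genes in the table and 43.9% of the 7023 genes that were also tested for RNA. Over the 30 genes it was present in 22 (73.3%). It did not separate called genes from the rest: 13 of 18 genes called higher held it, and 9 of 12 others. GGGCGG, the Sp1 box, was present in 24 (80.0%, against 38.2% of all genes and 69.8% of tested genes). Of the 13 sterol genes with an entry, 12 held GGGCGG as well. The E-box CACGTG was present in 6, Dhcr7, Elovl5, Hsd17b7, Insig1, Sc5d and Scap (20.0%, against 8.09% and 12.6%). TCACNCCAC, a strict form of the sterol regulatory element, was found in Pcyt1a alone (3.33%, against 1.44% of all genes), and TGACGTGG, an element of XBP1 and ATF6, in none (0.714% of all genes). No motif lies inside another, and a match is only a description of these letters.

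Other lipid genes, listed by pathway, had calls at shares close to those of all genes. Of 85 such genes 71 passed the filter, of which 11 were called higher (15.5%) and 16 lower (22.5%), next to 16.0% and 22.0% of all genes tested. Their median was 0.050. Of 8 genes that process SREBP or degrade its partners none was called higher, and the ubiquitin ligase genes Rnf145 (121 to 21.6 TPM, -1.45) and Rnf139 (36.9 to 7.46 TPM, -1.18) were called lower. With TMM factors on counts Rnf139 was short of the threshold (-0.90). In sterol storage, traffic and efflux 1 of 10 tested genes was called higher, Npc2, a lysosomal cholesterol carrier (53.0 to 113 TPM, 2.07), and 5 were called lower. Mylip, which encodes a ubiquitin ligase for lipoprotein receptors, went from 122 to 3.77 TPM (-3.70). The efflux transporter gene Abca1 went from 34.3 to 0.509 TPM (-3.56). Monocyte and neutrophil markers, given above, were also lower in the plasma library, and their part in these values was not tested. The other 3, named after their values were seen, were the efflux transporter gene Abcg1 (-1.52), the sterol-sensing receptor gene Nr1h2 (-1.26) and the esterification gene Soat1 (-1.21). Genes of fatty acid supply and elongation were called higher in 2 of 10 cases, Fads3 and the citrate carrier gene Slc25a1 (1.74), and lower in 1, Acsl1 (-1.202). Phospholipid and glyceride synthesis had 6 of 27 higher, with Agpat4 at 2.65 and the cardiolipin synthase gene Crls1 at 1.90, and 7 lower, with Lpcat2 at -2.35 and Agpat9 at -1.78. With a pseudocount of 5 TPM Acsl1 (-0.55), Agpat9 (-0.86) and Rnf139 (-0.91) were short of the threshold, and without centring so were Slc25a1 (0.75) and Crls1 (0.91). Without centring 3 of the 71 that passed the filter were called higher and 35 lower, against 7.75% and 57.6% of all genes tested.

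**Figure D4:**
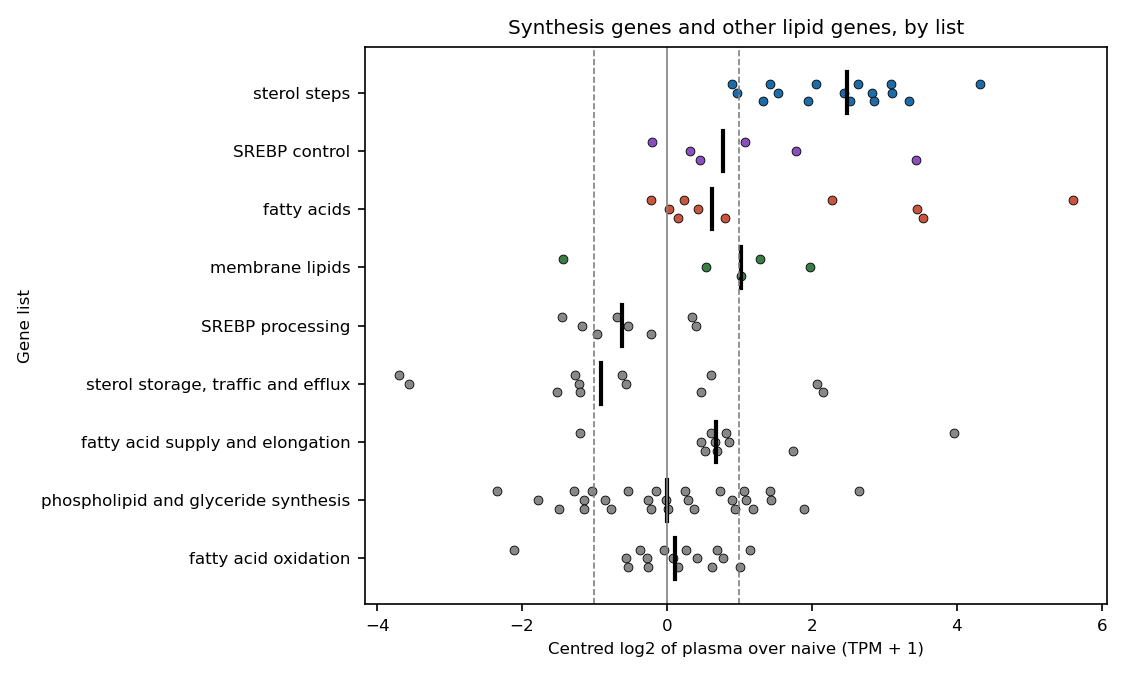
Centred log2 ratio of plasma over naive for genes with at least 1 TPM in 1 library, by list, with a bar at each median and dashed lines at 1 and -1. The sterol steps have a median of 2.48, and the list of sterol storage, traffic and efflux has a median of -0.91.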

How the data were processed

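RNA-seq was used for 1 naive B and 1 plasma cell library, and the other 8 samples of the series were not used here. Per the file headers, the deposited files hold estimated counts and TPM for 61112 transcripts. The submitters' processing notes name kallisto and the build mm9, while the kallisto version is not given. Peaks were not assigned to genes, since no annotation of that build was used. Transcript values were summed by gene symbol. Of 179 list entries 177 were matched, 3 of them by gene ID.

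Centring, the call rule and the pseudocount are given with the results. No test was possible with 1 library per group. Intervals are exact Clopper-Pearson intervals at 95% on rounded estimated counts. They cover counting error only, and neither the spread between replicates nor the uncertainty in how reads were divided among genes. No molecular identifiers are described in the labels, so duplicate reads could not be set apart. TMM factors came from edgeR 4.0.16 and size factors from DESeq2 1.42.0. The code that makes the calls was checked on simulated data, which gives no error for the calls themselves. All 37 genes are named, and of each other lipid list the 2 called genes with the largest ratio in each direction. Of the markers up to 3 per list with the highest levels are named, and Sdc1, Tnfrsf17 and markers listed at 0 were added after their values were seen. One alternative kept only transcripts with a coding sequence in the deposited identifier. Every listed transcript of the 37 genes has one, so for these genes it could move only the centre. The genes, lists and 12 alternatives were chosen with earlier results of these data known. Promoters are from RefSeq (GRCm38.p6).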

Additional observations from a re-analysis of the deposited data

How the results depend on the processing

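No paired analysis was possible because each cell type had 1 library, and none could be left out. Of 12 alternatives, none turned the direction of a called gene, but several could not have done so. Changes of the TPM filter or the fold threshold keep the same ratio. Leaving out the centring lowers every ratio by 0.99, which is too little to bring a gene called higher below 0. The number of genes called higher was 24 as reported and stayed between 18 (3-fold threshold, or at least 20 TPM in 1 library) and 27 (TMM counts, DESeq2 size factors, or a 1.5-fold threshold), except without centring, where it was 15. Those 15 were all among the 24. Of the 37 genes, 28 were tested with at least 20 TPM. The share of all genes tested that was called higher was 16.0% as reported, 10.0% at 3-fold and 16.4% with at least 20 TPM. It was 24.0% at 1.5-fold, 22.0% with TMM counts, 22.6% with DESeq2 size factors and 7.75% without centring. The number called lower, 1 as reported, was 3 without centring and 0 with a pseudocount of 5 TPM, with TMM counts, with DESeq2 size factors and at 3-fold. Over all genes tested the lower share was 22.0% as reported, 57.6% without centring and 12.1% with a pseudocount of 5 TPM. It was 16.7% with TMM counts, 16.1% with DESeq2 size factors and 9.52% at 3-fold. The median ratio of 1.53 was 0.55 without centring, 1.34 with a pseudocount of 5 TPM, 1.65 with immunoglobulin genes left out, 1.86 with at least 20 TPM, 1.94 with TMM counts and 1.96 with DESeq2 size factors. Over genes that reach 5 TPM in both, the median was -0.99 without centring, 0.32 with TMM counts and 0.35 with DESeq2 size factors, so values on those scales are shifted as a whole.

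For the other lipid genes the same alternatives were added after the data were seen. The 11 called higher became 3 without centring, 5 at 3-fold, 6 with at least 20 TPM, 7 with a pseudocount of 5 TPM, 20 with no TPM filter, 21 with TMM counts, 22 with DESeq2 size factors and 23 at 1.5-fold. The 16 called lower became 5 at 3-fold, 9 with TMM counts, 9 with DESeq2 size factors, 10 with a pseudocount of 5 TPM and 35 without centring. Over all genes, 1628 called higher and 2242 lower became 790 and 5870 without centring, 2239 and 1701 with TMM counts, 2303 and 1641 with DESeq2 size factors, 1382 and 1234 with a pseudocount of 5 TPM, 3671 and 2367 with no filter, 2443 and 3716 at 1.5-fold and 1020 and 970 at 3-fold. The cause of these moves, beyond the shift in scale, was not tested. Depth limits Fads2 most, with 12 naive counts. Isoform shares and promoter letters had no alternative.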

Other observations

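Genes of fatty acid oxidation, the breakdown of fatty acids in mitochondria and peroxisomes, lay close to the middle of all genes. All 16 passed the filter, and the median was 0.12. Of them 2 were called higher (12.5%) and 1 lower (6.25%), next to 16.0% and 22.0% of all genes tested. Cpt1a, which encodes the carnitine transferase that admits long chains to mitochondria, was at 75.6 TPM in the naive and 7.91 TPM in the plasma library, a centred ratio of -2.12. The 2 called higher were Acadl, a dehydrogenase of long chains, at 64.2 and 71.5 TPM (1.14), and Etfa, which passes its electrons on, at 52.7 and 53.7 TPM (1.01). Both of these calls rest on centring, as the levels were close to equal.

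The estimated counts of 19 of the 37 synthesis genes summed to whole numbers within 0.01 in both libraries, the form they take where no read is split with another gene. Among them were Fdps, Sqle, Mvd, Insig1, Fads1 and Fasn. The other 18, with Scd1, Scd2, Acat2 and Cyp51 among them, had a fraction in at least 1 library. Whole sums were found for 17717 of all 26434 genes, which include genes listed at 0, and for 54 of the 85 other lipid genes.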
